A study of Homo sapiens with 39 samples.

Results

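Glycolysis and hypoxia genes were followed in U937, an established human histiocytic lymphoma line of monocytic character, on Affymetrix expression arrays. The group was set as a list of 39 gene symbols covering the glycolytic enzymes, glucose and lactate transporters, the oxygen-sensing proteins and well-known targets of the hypoxia-inducible factor (HIF), and each gene was read on its brightest probe set, the set of array oligonucleotides that reports a transcript. Of the 39 genes, 36 could be measured, out of 18132 genes tested in all. SLC2A3 was read only by probe sets shared with another gene, and SLC16A3 and CA9 had no probe set of their own in the probe table used here, so these 3 genes are not reported.

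There were 39 arrays in 13 groups of 3. Untreated cells were collected at 0, 24, 48 and 72 h, and cells cultured with 10 µM of Pu27, Pu9- or Pu5-, which are guanine-rich DNA oligonucleotides of different length and sequence, were collected at 24, 48 and 72 h. All groups were the same line in the same medium, no group received an oligonucleotide of unrelated sequence, and the labels name no low-oxygen treatment. The labels speak of 3 repeat experiments without tying the replicate numbers to them, and a p-value here reflects only how far these samples scatter, which may be technical.

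Glycolysis splits glucose into pyruvate in the cytosol. Glucose enters through SLC2A1, is trapped by the hexokinases, and passes through phosphofructokinase, aldolase, glyceraldehyde phosphate dehydrogenase and pyruvate kinase, after which LDHA turns pyruvate into lactate while the PDK kinases hold back its entry into mitochondria. HIF raises the transcription of most of these genes when oxygen is short, because the EGLN prolyl hydroxylases, which mark HIF1A protein for destruction, need oxygen. The same factor drives genes for mitochondrial clearance (BNIP3 and BNIP3L), vessel growth (VEGFA) and collagen hydroxylation (P4HA1 and P4HA2), and many proliferating tumour lines, U937 among them, rely heavily on glycolysis.

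Values are log2 signals after robust multiarray averaging (RMA), so a difference of 1 is a doubling, and they are relative to the other RNAs of the sample. In such bulk samples, fewer cells of a type and less RNA per cell cannot be told apart. A gene is called changed when limma's adjusted p (Benjamini-Hochberg over all 18132 genes) is under 0.05, and a log2 change is given ± its standard error with 3 arrays per group. The arrays of a group correlated at 0.993 or more, the array medians lay between 5.82 and 5.94, and no 2 arrays were identical. Of 15 listed myeloid markers 14 were measured, and 8 of them were above the median gene, among them CTSG (13.88), LYZ (12.99), ELANE (12.04) and CEBPA (11.20), while CD14 (3.46), MPO (4.85), SPI1 (5.29) and CSF1R (5.63) were below it. The mean of the list was 8.31 to 8.78 across the arrays. Of 4 measured B cell markers PAX5 was above the median gene (9.13), and MS4A1 (3.86), CD79A and CD79B were below it, as were all 4 T cell, all 4 epithelial and all 4 fibroblast markers measured. Of 3 measured erythroid markers HBB was above it (7.33), and ALAS2 (5.68) and EPOR (5.38) were below it. EGLN3, PFKM and P4HA2 were dim, with means of 4.10, 4.55 and 3.30 over the 39 arrays. By the suffix _x_at, 8 members were read on probe sets of a kind that can also bind related transcripts (ALDOA, ALDOC, ENO1, GAPDH, HILPDA, PFKL, PGAM1 and TPI1). Whether sets of other kinds also do so was not checked, among them the _s_at sets of SLC2A1, PKM, LDHA, BNIP3 and VEGFA.

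The array of untreated cells at 0 h, replicate 1, stood apart for these genes. It was the lowest of its 3 arrays for 27 of the 36 members, with a median difference of -0.27 from the mean of the other two arrays. It lay more than 0.5 below them for 11 members (PFKFB4, ALDOC, PKM, EGLN1, BNIP3, BNIP3L, P4HA1, ANKRD37, NDRG1, KDM3A and HILPDA), against 1.88% of all genes. On any other array at most 4 members were off by that much in either direction. Comparisons with 0 h are therefore also given without it.

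**Figure D1:**
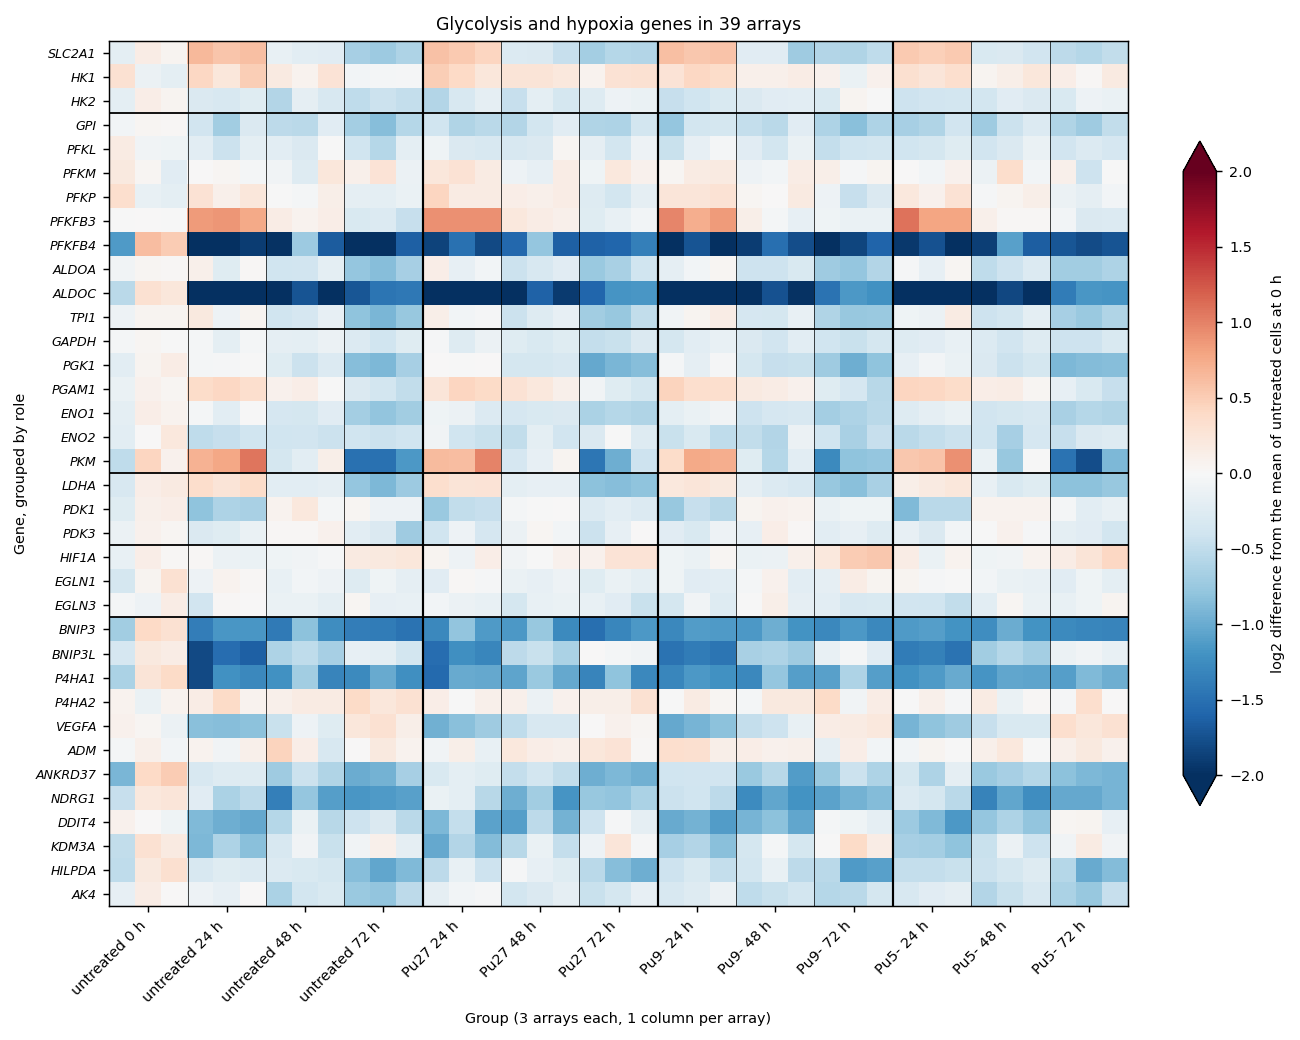
Each row is 1 of the 36 measured genes, grouped by role, and each column 1 of the 39 arrays. Colour gives the log2 difference from the mean of the 3 untreated arrays at 0 h (capped at 2 in either direction). ALDOC is below 0 h in every array of every later group, and PFKFB4 is below it in every group mean. For PFKFB4, replicate 2 at 48 h (8.33 untreated, 8.28 with Pu27) lies above replicate 1 at 0 h (7.92). The columns of a time point look alike whichever oligonucleotide was present.

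In untreated cells between 0 and 24 h, 7 of the 12 HIF targets outside glycolysis and oxygen sensing fell and none rose, while the genes of glycolysis went both ways. The genes that fell most were ALDOC (aldolase C, an isoform of the enzyme that splits fructose bisphosphate), PFKFB4 (which sets the level of a sugar phosphate that activates phosphofructokinase), BNIP3L, P4HA1 and BNIP3. SLC2A1, HK1, PFKFB3, PGAM1, PKM and LDHA rose. Of the 36 members, 6 rose and 13 fell, which is 52.8%, while 28.6% of all genes were called in this comparison (14% higher and 14.6% lower). The members' median log2 change was -0.11, beside -0.03 over all genes.

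The promoters of 4 genes are shown because these genes had the largest called changes between 0 and 72 h in untreated cells, the comparison in which most members were called, and because HIF binds a short core. Each is the 250 bases before the gene's start from RefSeq (GRCh38.p14), 5′ to 3′ on the gene's own strand, which is the minus strand in each case. Capitals mark the cores ACGTG and GCGTG on either strand (CACGT and CACGC are their reverse complements), and CACGTG where ACGTG lies on both strands at once.
PFKFB4, chr3:48556804-48557053: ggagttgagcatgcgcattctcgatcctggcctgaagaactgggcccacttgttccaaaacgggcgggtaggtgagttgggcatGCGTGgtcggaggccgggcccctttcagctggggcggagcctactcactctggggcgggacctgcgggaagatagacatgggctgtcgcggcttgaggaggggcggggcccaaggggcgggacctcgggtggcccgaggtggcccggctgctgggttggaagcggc
ALDOC, chr17:28576896-28577145: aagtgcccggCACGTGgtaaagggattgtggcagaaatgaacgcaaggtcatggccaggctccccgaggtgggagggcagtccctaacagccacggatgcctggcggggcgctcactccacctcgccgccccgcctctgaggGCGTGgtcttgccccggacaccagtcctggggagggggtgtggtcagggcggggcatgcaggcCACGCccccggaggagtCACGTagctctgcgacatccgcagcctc
BNIP3, chr10:131981924-131982173: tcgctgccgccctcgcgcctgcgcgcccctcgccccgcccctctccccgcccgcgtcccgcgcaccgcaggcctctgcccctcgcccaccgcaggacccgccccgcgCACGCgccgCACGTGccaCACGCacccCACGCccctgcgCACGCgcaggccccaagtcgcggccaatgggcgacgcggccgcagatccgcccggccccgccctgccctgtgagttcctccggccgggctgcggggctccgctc
PKM, chr15:72231191-72231440: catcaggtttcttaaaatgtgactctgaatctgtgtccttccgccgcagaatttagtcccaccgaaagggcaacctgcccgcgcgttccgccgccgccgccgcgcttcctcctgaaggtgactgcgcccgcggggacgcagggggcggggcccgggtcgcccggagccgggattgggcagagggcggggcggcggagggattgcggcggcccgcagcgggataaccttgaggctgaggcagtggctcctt
The PFKFB4 window held 1 GCGTG core. The ALDOC window held 3 ACGTG and 2 GCGTG cores, 2 of the former being both strands of 1 CACGTG. The BNIP3 window held 2 ACGTG cores, again the strands of 1 CACGTG, and 4 GCGTG cores. PKM had neither core in this stretch. ACGTG or GCGTG was present in 43.2% of all 35116 promoter windows of this length and in 61.0% of the 59 windows of the 32 members that had one, and CACGTG was present in 6.34% and 15.3%. A match is only a description of the letters, and no window was given for BNIP3L, NDRG1, VEGFA or HILPDA.

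ALDOC gave the largest single change. Its signal was 9.72, 10.57 and 10.49 in the 3 arrays at 0 h and 7.04, 7.39 and 7.37 at 24 h. Every array at 24 h was below every array at 0 h, by 7.96-fold on average (log2 change -2.99 ± 0.18, adjusted p = 1.00e-14). Its 4 other bright probe sets fell as well, with changes of -3.01 to -1.34. Without replicate 1 at 0 h the change was -3.26.

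PFKFB4 was read at 7.92, 9.68 and 9.57 at 0 h and at 6.98, 7.03 and 7.16 at 24 h. The arrays did not overlap, but replicate 1 at 0 h stood well below the other two. The change was -2.0 ± 0.30 (adjusted p = 2.11e-06), or -2.57 without that array, and another probe set of the gene gave -0.57. With the mean of its probe sets the change was -1.0, still called. PFKFB3, the other member of this pair in the list and the isoform known for its high kinase activity, went the opposite way on its brightest probe set. Its 3 arrays at 0 h were at 8.71, 8.71 and 8.71 and those at 24 h at 9.56, 9.59 and 9.47, a change of 0.83 ± 0.09 (adjusted p = 2.07e-09). The only other bright probe set of PFKFB3 gave -0.09, and with the mean of all its probe sets the change was 0.16 and no longer called (adjusted p = 0.0840, range over the alternatives 3.37e-10 to 0.084).

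Both mitophagy receptors fell. BNIP3L went from 9.91, 10.44 and 10.40 at 0 h to 8.45, 8.73 and 8.62 at 24 h, and its 5 other probe sets changed by -1.87 to -1.82. The log2 change of BNIP3L was -1.65 ± 0.10 (adjusted p = 1.32e-14). BNIP3 went from 9.57, 10.66 and 10.58 to 8.88, 9.10 and 9.10, a change of -1.24 ± 0.18 (adjusted p = 8.18e-07) with no overlap between the groups. The other BNIP3 probe set did not move with it (-0.02), so that the change of BNIP3 rests on 1 probe set, and with the mean of both it was -0.63, still called.

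P4HA1, a catalytic subunit of the collagen prolyl hydroxylase, fell from 10.00, 10.90 and 11.01 to 8.83, 9.42 and 9.35 (log2 change -1.44 ± 0.20, adjusted p = 6.23e-07). VEGFA, the endothelial growth factor, was at 11.32, 11.27 and 11.11 at 0 h and at 10.40, 10.38 and 10.41 at 24 h. The VEGFA arrays were tightly grouped and did not overlap, its change was -0.83 ± 0.09 (adjusted p = 9.57e-09), and its 9 other probe sets all fell, with changes of -0.93 to -0.15 (-0.53 with the mean of all probe sets, still called). Among the other targets, DDIT4, an inhibitor of the growth kinase mTORC1, changed by -0.96 ± 0.14, and KDM3A, a histone demethylase, by -0.78 ± 0.16. NDRG1, a stress-responsive differentiation gene, changed by -0.46 ± 0.15, with 1 array at 0 h inside the range of 24 h. ANKRD37 and HILPDA, a lipid droplet protein, missed the threshold at -0.28 and -0.27, with replicate 1 at 0 h far below its partners. Without that array ANKRD37 was at -0.74 (adjusted p = 2.24e-05) and HILPDA at -0.53 (adjusted p = 0.00494), and both were called. AK4 (a mitochondrial adenylate kinase), ADM (adrenomedullin, a vasodilator peptide) and the dim P4HA2 were not called.

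The 3 genes of glucose uptake and phosphorylation went both ways, with SLC2A1 and HK1 higher and HK2 lower. So did LDHA and PDK1, which bear on the fate of pyruvate. SLC2A1, the main basal glucose transporter, went from 8.18, 8.53 and 8.43 to 9.02, 8.93 and 8.98, with no overlap (log2 change 0.60 ± 0.09, adjusted p = 3.93e-06). PKM, pyruvate kinase, went from 9.77, 10.72 and 10.37 to 10.98, 11.06 and 11.35 (log2 change 0.85 ± 0.23, adjusted p = 0.00458). LDHA went from 12.78, 13.23 and 13.27 to 13.45, 13.36 and 13.46 (log2 change 0.33 ± 0.09, adjusted p = 0.00319). The 3 other bright probe sets of PKM rose by 0.74 to 0.91 and the 3 of LDHA by 0.35 to 0.43. Both genes were lowest at 0 h in replicate 1, and without it neither was called (PKM 0.59, adjusted p = 0.0740, and LDHA 0.17, adjusted p = 0.0926). Over all alternatives the adjusted p ranged from 0.000214 to 0.0754 for PKM and from 0.000383 to 0.192 for LDHA. HK1 changed by 0.38 ± 0.10 and PGAM1, a phosphoglycerate mutase, by 0.37 ± 0.09. For HK1, replicate 1 at 0 h (10.41) lay inside the range of 24 h (10.32 to 10.58). Its call was lost in 2 of 16 alternatives, with limma's adjusted p up to 0.269.

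Other genes of glycolysis fell or were not called. HK2, the inducible hexokinase, changed by -0.29 ± 0.11, GPI, the isomerase that follows it, by -0.46 ± 0.13, and the neuronal enolase ENO2 by -0.45 ± 0.12, and all 3 fell. PDK1, the kinase that switches off pyruvate dehydrogenase, went from 12.64, 12.99 and 13.01 to 12.07, 12.26 and 12.23 without overlap (log2 change -0.69 ± 0.10, adjusted p = 8.58e-07). ALDOA, TPI1, GAPDH, PGK1 and ENO1, which carry the trunk of the pathway, lay between -0.09 and 0.05 and were not called, although for PGK1 the 8 other probe sets ranged from -0.06 to 0.73. Nor were HIF1A (-0.08 ± 0.10), EGLN1 and EGLN3, PFKL, PFKM, PFKP or PDK3 called. The 7 other probe sets of HIF1A gave -0.44 to -0.16 and both others of EGLN1 about -0.42, below their brightest ones. Of the 19 calls, 14 held whichever of the 6 arrays was left out. PKM and LDHA were lost without replicate 1 at 0 h, GPI without replicate 2 at 24 h, NDRG1 without replicate 2 or 3 at 0 h or 24 h, and HK2 without any one of the arrays except replicate 1 at 0 h. With replicate 1 at 0 h left out, 5 members were higher and 15 lower, and 26.1% of all genes were called.

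**Figure D2:**
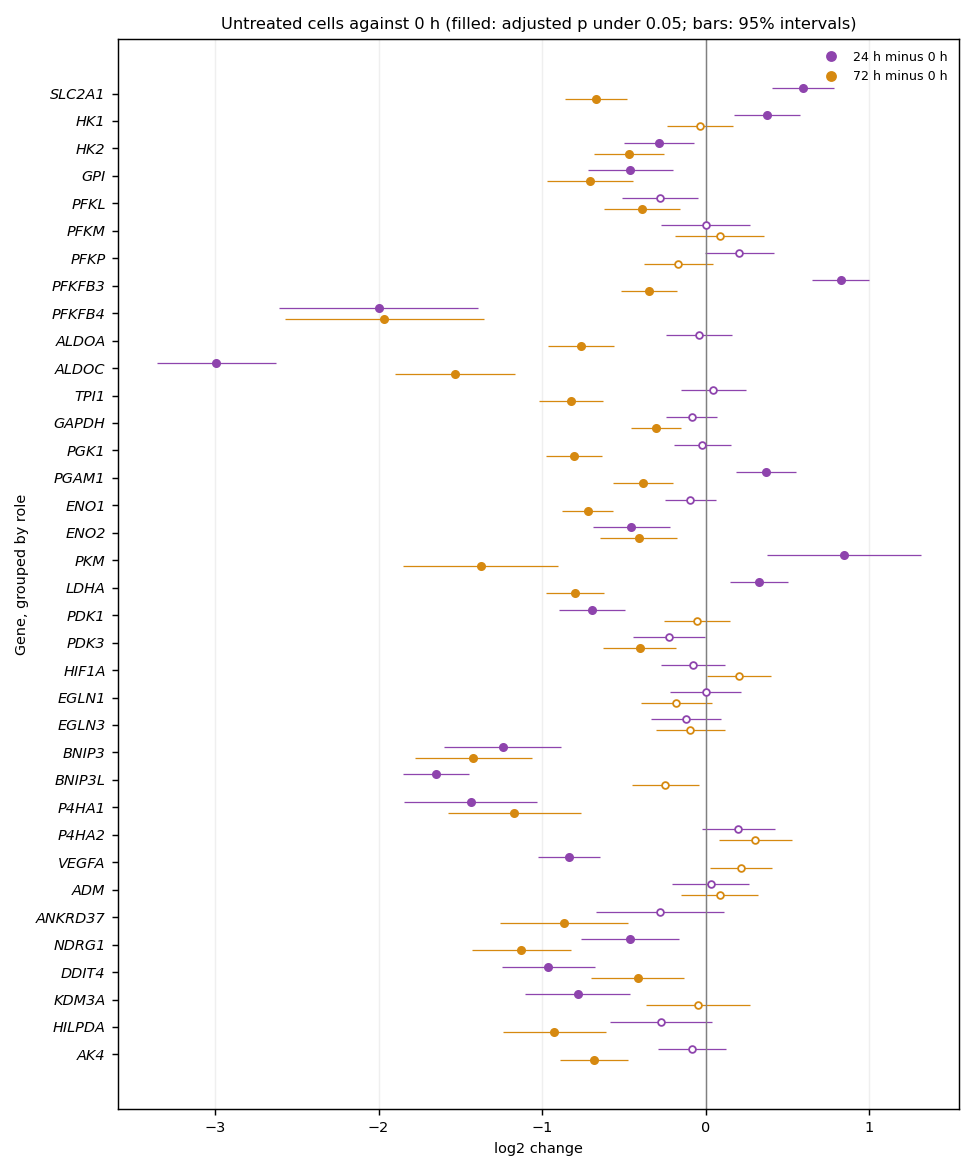
The x axis is the log2 change of untreated cells from 0 h to 24 h (purple) and from 0 h to 72 h (orange), with 95% intervals from 3 arrays per group, for each of the 36 genes by role. Filled points passed the adjusted p of 0.05. At 24 h, 6 filled points lie to the right of 0 and 13 to the left, and at 72 h all 24 filled points lie to the left.

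From 24 to 72 h, 5 of the 6 genes of lower glycolysis fell and none rose, 4 of the 9 of upper glycolysis fell and ALDOC rose, and of the 12 other HIF targets 4 rose and 4 fell. Over all members 7 rose and 16 fell (63.9%, beside 35.5% of all genes, 17.7% in each direction), with a median log2 change of -0.18 beside 0.00 over all genes. This comparison shares the 24 h arrays with the previous one, so that opposite signs in the 2 are not independent. PKM fell to 8.79, 8.80 and 9.13 at 72 h, a log2 change of -2.22 ± 0.23 (adjusted p = 8.99e-10), or 4.67-fold. At 48 h it had been at 9.93, 10.08 and 10.39, below every array of 24 h and above every array of 72 h. SLC2A1 was at 8.22, 8.17 and 8.14 at 48 h and at 7.72, 7.65 and 7.75 at 72 h (change from 24 h -1.27 ± 0.09, adjusted p = 3.34e-13). LDHA was at 12.89, 12.88 and 12.92 and then at 12.33, 12.19 and 12.37 (change from 24 h -1.13 ± 0.09, adjusted p = 9.13e-13). Each step down was larger than the spread between the arrays for these 3 genes.

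PGK1, the first ATP-yielding enzyme of the pathway, was at 12.80, 12.81 and 12.83 at 24 h, 12.59, 12.41 and 12.57 at 48 h and 11.99, 11.93 and 12.17 at 72 h, a fall of -0.79 ± 0.08 from 24 h that its 8 other probe sets shared (-1.42 to -0.67). TPI1 changed by -0.87 ± 0.10, PGAM1 by -0.75 ± 0.09, ALDOA by -0.72 ± 0.10 and ENO1 by -0.63 ± 0.08. PFKFB3 changed by -1.17 ± 0.09 on its brightest probe set, and its other bright probe set gave 0.17. HK1, PFKP (the platelet phosphofructokinase) and GAPDH fell by less, at -0.41 ± 0.10, -0.37 ± 0.10 and -0.22 ± 0.08. With the mean of all its probe sets PFKFB3 was at -0.21, still called.

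BNIP3L rose from its low point through 9.64, 9.74 and 9.59 at 48 h to 10.08, 10.05 and 9.88 at 72 h, a change of 1.40 ± 0.10 from 24 h (adjusted p = 1.99e-13). VEGFA passed 10.79, 11.12 and 11 at 48 h and reached 11.46, 11.54 and 11.34 at 72 h, a change of 1.05 ± 0.09 (adjusted p = 2.48e-11), where each array lay just above those of 0 h. Its 9 other probe sets rose by 0.07 to 1.01, and with the mean of all of them the change was 0.57, still called. ALDOC was at 8.15, 8.54 and 8.27 and then 8.55, 8.80 and 8.84, a rise of 1.46 ± 0.18 (adjusted p = 2.77e-08) that left it below every array of 0 h, and its 4 other probe sets rose by 0.30 to 1.35. On its brightest probe set PDK1 was back at 12.95, 13.09 and 12.84 by 48 h. It was at 12.93, 12.78 and 12.78 at 72 h, overlapping its values at 0 h. KDM3A (0.74 ± 0.16), DDIT4 (0.55 ± 0.14) and HIF1A (0.28 ± 0.10) rose as well. The 7 other probe sets of HIF1A rose by 0.14 to 0.37, and with the mean of its probe sets the change was 0.25 and not called (adjusted p = 0.112, range over the alternatives 0.00887 to 0.189).

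Other targets did not rise. PFKFB4 was at 6.87, 6.97 and 7.43 at 72 h, overlapping 24 h (0.03 ± 0.30), with 1 high array (replicate 2) at 48 h, when it stood at 7.08, 8.33 and 7.39. BNIP3 was at 8.89, 8.87 and 8.79 (-0.18 ± 0.18 from 24 h) and P4HA1 at 9.36, 9.62 and 9.41 (0.26 ± 0.20), neither of them called. NDRG1 fell further, by -0.67 ± 0.15, as did AK4 (-0.60 ± 0.10), HILPDA (-0.65 ± 0.15) and ANKRD37 (-0.59 ± 0.19). ANKRD37 was at -0.32 and not called with the mean of its probe sets (adjusted p = 0.0714). Of the 23 calls, 20 held whichever of the 6 arrays was left out. GAPDH was lost without replicate 1 or 3 at 24 h or replicate 2 at 72 h, HIF1A without replicate 2 or 3 at 24 h or replicate 3 at 72 h, and ANKRD37 without replicate 1 or 2 at 72 h.

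In steps between neighbouring times, from 24 to 48 h 6 members rose and 11 fell (22.5% of all genes were called, 12.2% higher and 10.4% lower), and from 48 to 72 h 2 rose and 11 fell (17.4% of all genes, 7.91% higher and 9.44% lower). PDK1 made its whole rise in the first step (0.77 ± 0.10), and BNIP3L most of it (1.05 ± 0.10, then 0.35 ± 0.10). VEGFA rose in both (0.57 ± 0.09, then 0.48 ± 0.09), and LDHA fell in both (-0.53 ± 0.09, then -0.60 ± 0.09). Leaving out 1 array cost up to 5 of the 17 calls of the first step, and 11 of the 13 calls of the second held without any 1 array. With the mean of the probe sets VEGFA was at 0.29 and then 0.28, both called.

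Compared with the start of the culture, no member was called higher at 48 or 72 h with all arrays in the fit. Without replicate 1 at 0 h, HK1 was called higher at 48 h beside 15 lower members (4.46% of all genes were called), with GPI and ALDOA lost and LDHA, ANKRD37, KDM3A and HILPDA gained. At 48 h 13 were lower (5.18% of all genes were called, 3.04% higher and 2.14% lower), and at 72 h 24 of the 36 were lower, or 66.7%, with 15.6% of all genes called, 7.61% higher and 7.99% lower. The members' median was -0.41 at 72 h, beside -0.03 over all genes. At 72 h the fall covered all 6 genes of lower glycolysis, 7 of the 9 of upper glycolysis, 7 of the 12 other HIF targets, SLC2A1, HK2, LDHA and PDK3, and none of the 3 genes of oxygen sensing. PFKFB4 (-1.97 ± 0.30), ALDOC (-1.53 ± 0.18), BNIP3 (-1.42 ± 0.18) and PKM (-1.38 ± 0.23) had fallen most. PGK1 (-0.81 ± 0.08), LDHA (-0.80 ± 0.09) and SLC2A1 (-0.67 ± 0.09), which had not fallen at 24 h, were all below every array of 0 h. VEGFA (0.22 ± 0.09), BNIP3L (-0.25 ± 0.10), PDK1 (-0.05 ± 0.10) and HIF1A (0.20 ± 0.10) were not called. The other BNIP3 probe set gave 0.04 here, and the 5 others of BNIP3L gave -0.65 to -0.54. The other PDK1 probe set gave -0.40, and the 9 others of VEGFA gave -0.10 to 0.14. The 7 others of HIF1A gave -0.20 to 0.02, with 1 of them above 0, and both others of EGLN1 gave -0.40 to -0.35. With the mean of the probe sets PFKFB4 was at -0.92, BNIP3 at -0.69, ANKRD37 at -0.51 and PGAM1 at -0.69, all still called, while HK2 (-0.30, adjusted p = 0.0532) and PFKFB3 (-0.05, adjusted p = 0.719) were not.

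Without replicate 1 at 0 h, 24 members were again lower at 72 h, with EGLN1 and BNIP3L in place of PFKL and DDIT4. DDIT4 was lost without any 1 of the 6 arrays, and PFKL also without replicate 2 at 72 h. The other calls that a single array could take away were ENO2 (without replicate 3 at 0 h or replicate 2 at 72 h), GAPDH (without replicate 2 at 72 h) and PDK3 (without replicate 2 at 0 h or replicate 3 at 72 h). The 48 h count was far less firm, being 6 without replicate 2 at 0 h, 7 without replicate 3 at 0 h or replicate 1 at 48 h, 16 without replicate 1 at 0 h, and 1 when only the 2 groups entered the fit. A 3′ to 5′ ratio of the beta-actin control probes, a measure of RNA integrity, moved little over this time, from 1.91 ± 0.09 at 0 h to 2.05 ± 0.07 at 72 h (log2, SD, n = 3). Its part in these changes was not tested beyond a fit with it as a covariate, in which the counts at 24 and 72 h stayed within 1.5 times.

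The cultures with oligonucleotides show the change from 24 to 72 h on arrays that untreated cells did not share. They need not be independent repeats. After group means were removed, same-numbered Pu9- and Pu5- arrays at 72 h, for example, correlated at 0.340 to 0.576. The comparison of 72 h with 24 h within these arms was added after the data had been seen. With Pu27, 6 members rose and 14 fell between 24 and 72 h (36.4% of all genes were called, 19.7% higher and 16.8% lower), with Pu9- 8 rose and 15 fell (35.5%, 17.5% higher and 18% lower), and with Pu5- 8 rose and 13 fell (36.1%, 18.5% higher and 17.5% lower). Called in the same direction in all 4 arms were 17 of the 36 members, or 47.2%, beside 25.3% of all genes. The 6 that rose in each arm were ALDOC, PDK1, BNIP3L, VEGFA, DDIT4 and KDM3A. The 11 that fell in each arm were SLC2A1, PFKP, PFKFB3, ALDOA, TPI1, PGK1, PGAM1, ENO1, PKM, LDHA and NDRG1. No member was called in opposite directions in 2 arms, beside only 19 of all 18132 genes. At least 1 arm called 26 members, beside 8968 of all genes. Of the 17, 14 kept all 4 calls whichever single array was left out. PDK1 with Pu27 was lost without replicate 1 at 24 h, NDRG1 with Pu27 without replicate 1 or 2 at either time, and PFKP with Pu5- without replicate 1 or 3 at 24 h or replicate 2 at 72 h. The other PDK1 probe set gave -0.17 with Pu27, and with the mean of both PDK1 was at 0.07 (adjusted p = 0.737) and was not called with Pu9- (0.30) or Pu5- (0.29) either.

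Side by side, BNIP3L rose by 1.31 ± 0.10 in the Pu27 arm, 1.31 ± 0.10 in the Pu9- arm and 1.30 ± 0.10 in the Pu5- arm, beside 1.40 ± 0.10 in untreated cells. In the Pu27 arm its arrays went from 8.73, 9.03 and 8.95 to 10.26, 10.22 and 10.17. VEGFA rose by 0.88 ± 0.09, 1.10 ± 0.09 and 1.11 ± 0.09 in the same order of arms, and ALDOC by 1.41 ± 0.18, 1.6 ± 0.18 and 1.68 ± 0.18. The falls of SLC2A1 were -1.12 ± 0.09, -1.14 ± 0.09 and -1.04 ± 0.09. LDHA changed by -1.12 ± 0.09, -0.97 ± 0.09 and -0.97 ± 0.09, and PKM by -1.69 ± 0.23, -1.57 ± 0.23 and -2.05 ± 0.23. Each of these genes had no overlap between its 24 h and 72 h arrays in any arm.

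Some members were called in some arms and not in others, in part on calls that single arrays took away. AK4 was called lower in every arm but Pu27, ANKRD37 in every arm but Pu9- and HILPDA in every arm but Pu5-. HK1 was called lower in untreated cells and with Pu9-, and GAPDH in untreated cells and with Pu27. No single array took away the untreated calls of AK4, HK1 and HILPDA, the Pu5- call of AK4 or the Pu27 call of ANKRD37. The Pu9- call of AK4 was lost in 9 of 16 alternatives. HIF1A was called with Pu9- under all 16 alternatives (0.48 ± 0.10) and was at 0.18 ± 0.10 with Pu27, not called. Its call with Pu5- (0.24 ± 0.10) was lost in 11 of 16 alternatives, among them those without replicate 2 or 3 at either time, and with the mean of its probe sets it was 0.02 (adjusted p = 0.913). EGLN3, the inducible prolyl hydroxylase, rose with Pu5- (0.36 ± 0.10) from a dim signal, and the call was lost in 2 of 15 alternatives. HK2 was called higher with Pu9- (0.31 ± 0.11), a call lost in 8 of 16 alternatives, including without replicate 1 at 24 h or replicate 2 or 3 at 72 h. ADM was called lower with Pu9- (-0.29 ± 0.12), a call lost in 9 of 16, including without replicate 1 or 2 at 24 h or replicate 1 or 3 at 72 h. No member passed the test of whether an oligonucleotide's effect differed between the times, in which the smallest adjusted p was that of DDIT4 (0.299 for Pu27, 0.620 for Pu9- and 0.767 for Pu5-, limma's moderated F test, with 2, 3 and 3 members under an unadjusted p of 0.05 and 0.0441%, 0.00552% and 0.0441% of all genes called).

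**Figure D3:**
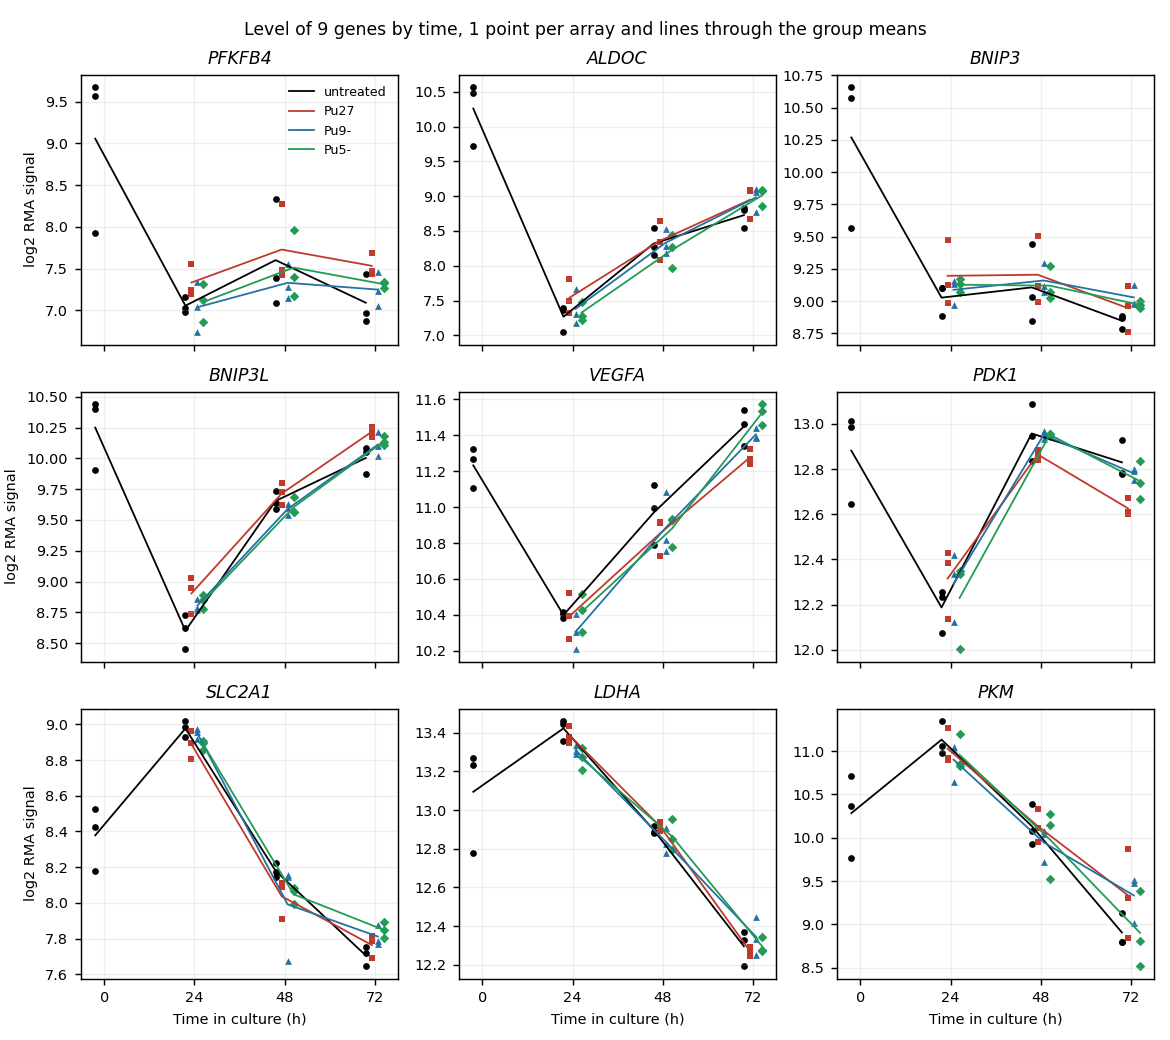
Log2 RMA signal of 9 genes against time in culture, with 1 point per array (3 per group) and lines through the group means, for untreated cells (black), Pu27 (red), Pu9- (blue) and Pu5- (green). On the probe sets plotted, PFKFB4 and BNIP3 fall after 0 h and stay low, and BNIP3L, VEGFA and PDK1 fall and return. SLC2A1, LDHA and PKM are highest at 24 h and fall to 72 h in all 4 arms.

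**Figure D4:**
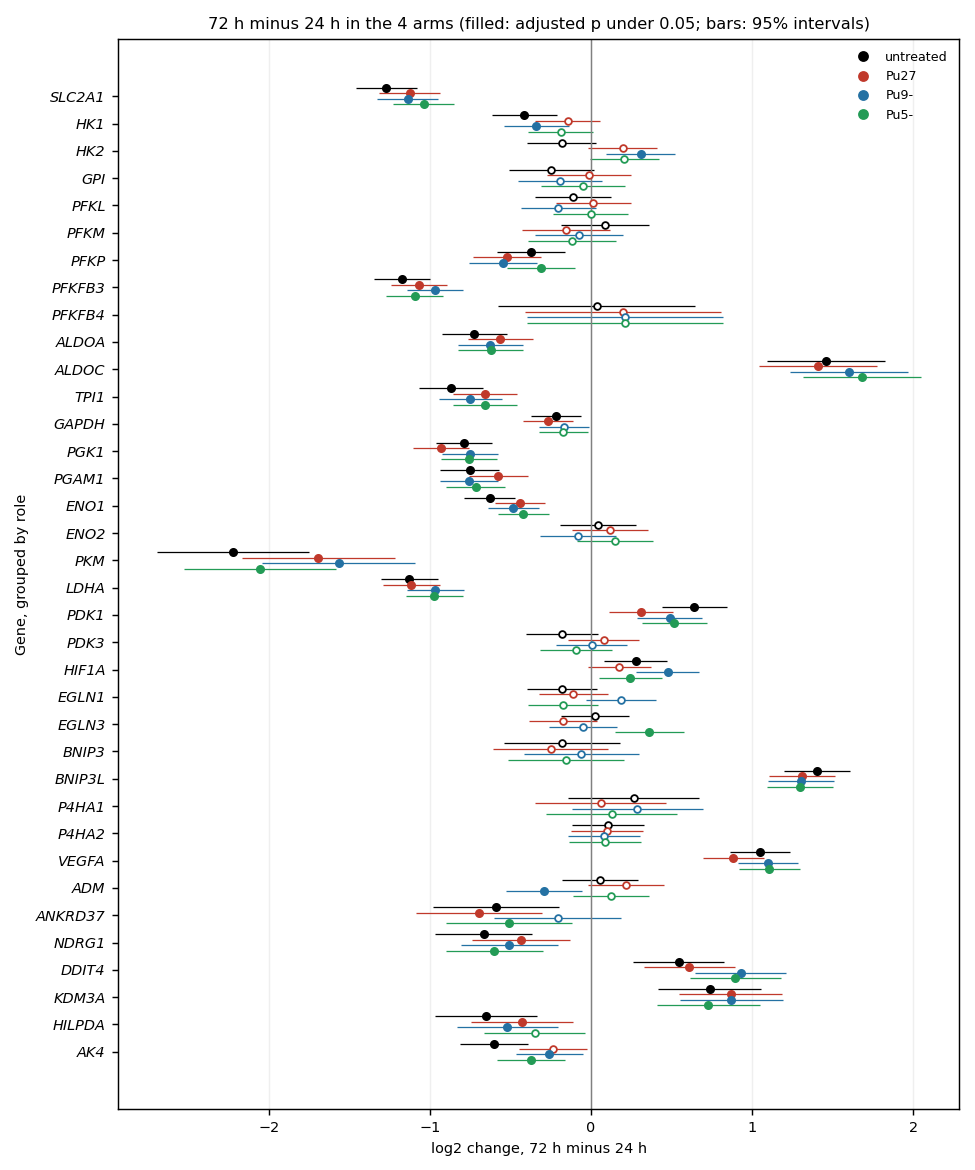
Log2 change from 24 to 72 h in untreated cells and with each oligonucleotide, with 95% intervals (3 arrays per group), for the 36 genes. Filled points passed the adjusted p of 0.05. The 4 points of ALDOC, BNIP3L and VEGFA all lie above 0.8, and those of PKM, LDHA and SLC2A1 all below -0.9.

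Against untreated cells of the same time, few of these genes differed by the test. The only member called in any of the 9 comparisons was AK4, higher with Pu27 at 72 h. No member was called with Pu27 at 24 or 48 h (0.0662% and 0.193% of all genes were called), with Pu9- at 24, 48 or 72 h (0.0165%, 0.0165% and 0.96%) or with Pu5- at 24, 48 or 72 h (0.0165%, 0.0165% and 0.778%). In limma's fit the members with an unadjusted p under 0.05 numbered 1, 1 and 7 with Pu27 at 24, 48 and 72 h, 1, 1 and 4 with Pu9-, and 2, 1 and 2 with Pu5-. With Pu27 at 72 h the call of 1 member in 36 stands beside 5.08% of all genes, 2.94% higher and 2.15% lower. All 3 oligonucleotides are set against the same untreated arrays, so that a direction they share is not independent evidence.

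AK4 moves phosphate between nucleotides in the mitochondrial matrix and is a known HIF target. At 72 h it stood at 8.48, 8.44 and 8.70 in untreated cells, at 8.78, 8.87 and 9.06 with Pu27, at 8.66, 8.68 and 8.87 with Pu9- and at 8.59, 8.46 and 8.77 with Pu5-. The Pu27 arrays lay above all the untreated ones, and the closest pair differed by less than 0.1. The difference was 0.36 ± 0.10 (95% interval 0.16 to 0.57, adjusted p = 0.0303). It was lost in 10 of 16 alternative settings, and the adjusted p ranged from 0.00135 to 0.603. The call ended without replicate 1 or 2 of untreated cells or replicate 2 or 3 of Pu27 at 72 h. It also ended with the mean of both AK4 probe sets, which gave 0.13, although the other set was dim. The beta-actin 3′ to 5′ ratio was 2.24 ± 0.08 (log2, SD, n = 3) with Pu27 at 72 h, beside 2.05 ± 0.07 in untreated cells, and with it as a covariate the AK4 difference was 0.26 and not called (adjusted p = 0.175).

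HK2 had the smallest adjusted p with Pu9- at 72 h. Its arrays at that time were at 9.59, 9.68 and 9.63 in untreated cells, 9.84, 10.00 and 9.97 with Pu27, 9.79, 10.16 and 10.09 with Pu9- and 9.80, 9.99 and 9.97 with Pu5-. All 9 arrays with an oligonucleotide were above all 3 without. The differences were 0.31 ± 0.11, 0.39 ± 0.11 and 0.29 ± 0.11 (adjusted p = 0.0854, 0.0643 and 0.251), and the other HK2 probe set gave 0.15, 0.14 and 0.26. At 72 h the replicate numbers were taken to pair the oligonucleotide arrays with the untreated ones (each same-numbered pair correlated at 0.108 or more after group means were removed). The labels do not state such a pairing. With the number as a block HK2 was called in all 3 comparisons (adjusted p = 0.00977, 0.00608 and 0.0462), so that the members called became 2 with Pu27 and 1 each with Pu9- and Pu5-. Over 15 alternatives the adjusted p of HK2 ranged from 0.00977 to 0.434 with Pu27, from 0.00112 to 0.911 with Pu9- and from 0.0321 to 1.0 with Pu5-. At 24 and 48 h HK2 differed by -0.11 to 0.12 from untreated cells with any of the 3.

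DDIT4 had the largest difference at 48 h. Untreated arrays were at 8.98, 9.42 and 9.0, with replicate 2 high, and those with Pu27, Pu9- and Pu5- at 8.45, 9.03 and 8.61, at 8.63, 8.74 and 8.51 and at 8.78, 8.95 and 8.77. The differences of -0.44, -0.51 and -0.30 did not pass (adjusted p = 0.356, 1.0 and 1.0), and at 72 h they were 0.21, 0.32 and 0.39, also not called. BNIP3L was higher with Pu27 at 24 h (0.30 ± 0.10, adjusted p = 0.474), not called. Its highest untreated array at 24 h was at 8.728. The lowest array was at 8.734 with Pu27, 8.773 with Pu9- and 8.779 with Pu5-, so the difference was not particular to Pu27. With each of the 3 the unadjusted p of BNIP3L in limma's fit was under 0.05. As a mean over the 3 times with Pu27 BNIP3L differed by 0.19 ± 0.06 (adjusted p = 0.0541, range over 15 alternatives 0.0177 to 0.407).

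Averaged over the 3 times, no member was called with Pu27 (3.98% of all genes were), Pu9- (0.0882%) or Pu5- (0.254%), and 5, 2 and 2 members had an unadjusted p under 0.05 in limma's fit. For Pu27 the numbers were taken to pair the arrays at all 3 times, and with the number as a block BNIP3L (0.19, adjusted p = 0.0177) and AK4 (0.17, adjusted p = 0.00917, range over 15 alternatives 0.00917 to 0.634) were called. The 95% interval of the mean difference lay within 0.5 of 0 for 35 of the 36 members with Pu27 and for all 36 with Pu9- and Pu5-. The exception was PFKFB4, at 0.28 with an interval up to 0.63. At 72 h alone, 30, 27 and 31 members had intervals within those bounds, and PFKFB4 with Pu27 (0.44, interval -0.17 to 1.05), NDRG1 with Pu27 (0.40, 0.10 to 0.70) and PKM with Pu9- (0.43, upper bound 0.90) were among those for which a larger difference was not excluded by these intervals.

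**Figure D5:**
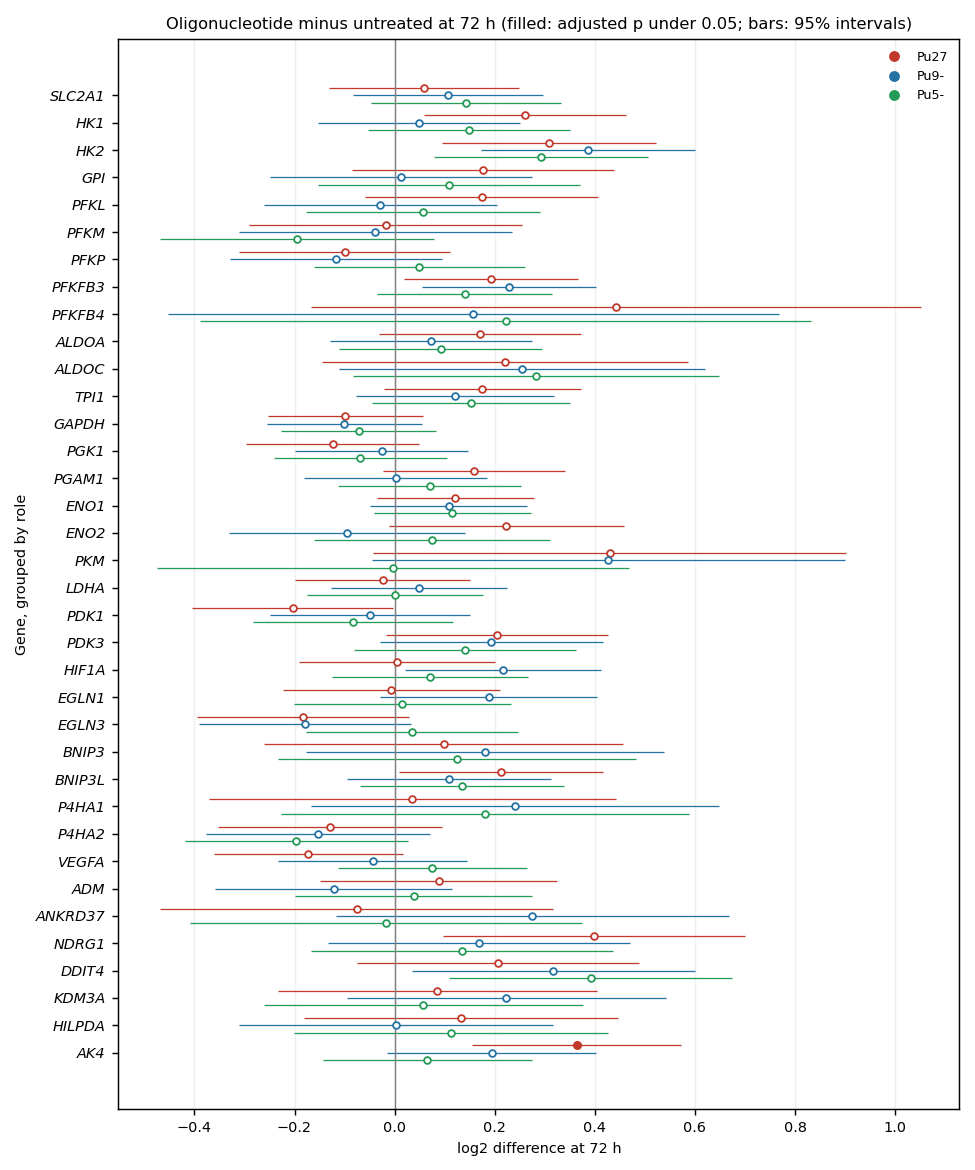
Log2 difference from untreated cells at 72 h for Pu27, Pu9- and Pu5-, with 95% intervals (3 arrays per group), for the 36 genes by role. The filled point, that of AK4 with Pu27, is the only one with an adjusted p under 0.05, and the 3 points of HK2 lie between 0.29 and 0.39.

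Between the oligonucleotides no member was called for any of the 3 pairs as a mean over the times (1.38%, 0.248% and 0% of all genes for Pu27 against Pu9-, Pu27 against Pu5- and Pu9- against Pu5-), and none at 72 h (1.51%, 0.248% and 0.0496%). In the same order of pairs 4, 3 and 0 members had an unadjusted p under 0.05 for the mean and 3, 3 and 1 at 72 h, by limma. The interval of the mean difference lay within 0.5 of 0 for 35, 35 and 36 members. PFKFB4 was outside it, with Pu27 above Pu9- by 0.33 (-0.03 to 0.68) and above Pu5- by 0.22 (-0.13 to 0.58). For AK4 the Pu27 mean exceeded that of Pu5- by 0.21 ± 0.06 (interval 0.09 to 0.33, adjusted p = 0.157). A p that misses the threshold does not show that the compounds act alike.

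Other genes of the 2 pathways, taken from lists outside the 39, were counted in the same way. Of 30 measured further glycolysis genes 3 rose and 7 fell between 0 and 24 h, and 5 rose and 5 fell between 24 and 72 h, or 33.3% each time beside 28.6% and 35.5% of all genes. Of 48 measured further HIF pathway genes 5 rose and 17 fell in the first interval, and 10 rose and 10 fell in the second, or 45.8% and 41.7%. Their medians were -0.06 and -0.11 in the first interval, beside -0.03 over all genes. Single genes are named here after their values were seen, and all those named fell between 0 and 24 h. The 3 and 5 genes that rose in that interval are not named, so the named genes do not stand for their lists. MXI1, a MYC antagonist, changed by -1.12 ± 0.10 and then by 1.11 ± 0.10, and INSIG2, which restrains sterol synthesis, by -1.42 ± 0.11 and then by 1.32 ± 0.11. MPC2, a subunit of the mitochondrial pyruvate carrier, changed by -1.13 ± 0.08 and then by 0.83 ± 0.08. ZNF395 and FAM162A, both HIF targets, fell by 1.13 and 0.89 on the log2 scale at 24 h, after which ZNF395 rose by 0.54 and FAM162A was not called.

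As a mean over the times with Pu27, 2 of the 30 further glycolysis genes (6.67%) were called. So were 2 of the 48 further HIF pathway genes (4.17%), beside 3.98% of all genes. With each of Pu9- and Pu5- the counts of the 2 lists were 1 and 0, beside 0.0882% (Pu9-) and 0.254% (Pu5-) of all genes. The single genes that follow are given without their other probe sets or alternative settings. GPD2, the mitochondrial glycerol phosphate dehydrogenase that carries cytosolic reducing power to the respiratory chain, was higher as a mean over the times with Pu27 (0.38 ± 0.06, adjusted p = 0.00022), Pu9- (0.32 ± 0.06, adjusted p = 0.0342) and Pu5- (0.33 ± 0.06, adjusted p = 0.0142), against shared untreated arrays. EPAS1, the second HIF alpha subunit, was higher with Pu27 (0.49 ± 0.09, adjusted p = 0.000875) and at 0.13 and 0.25 with Pu9- and Pu5-, not called. MPC2 was higher with Pu27 by 0.18 ± 0.05 (adjusted p = 0.0161), and KDM4C, a histone demethylase, changed by -0.25 ± 0.06 (adjusted p = 0.0127).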

How the data were processed

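Total RNA of U937 cells was hybridised to 39 Affymetrix arrays, 3 in each of 13 groups. The authors deposited log2 values made with robust multiarray averaging, which the submitters' processing notes name as RMA beside limma, with no versions. The version of the annotation is not given in the sources used here. Both deposited tables held the same values for the probe sets they share. Control probe sets and those with several gene symbols (1832) or none (2473) were set aside, and each of 18132 genes was read on the probe set with the highest mean. One limma model (limma 3.58.1, R 4.3.3) held the 13 group means, with 26 residual degrees of freedom and Benjamini-Hochberg adjustment over all genes in each comparison. The code was tested on simulated data. Every member past the threshold could be named, and HIF1A, VEGFA, SLC2A1, HK2, LDHA, PGK1, PDK1 and BNIP3 were given whatever their change. The members and lists were chosen with earlier results of these data known. The number of arrays limits the precision.

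The replicate numbers come from the sample titles. After group means were removed, same-numbered arrays correlated at 0.138 on average and differently numbered ones at -0.07, and the numbers were taken to pair a comparison only where every pair was over 0.1. That cut does not establish a pairing, since 86 of 468 differently numbered pairs were also over 0.1, beside 138 of 234 same-numbered ones. Alternatives were a fit of only the groups compared, the replicate block, a median shift, a filter on low values, the mean of all probe sets or every probe set apart, an RNA integrity covariate, and each array or replicate left out. Other probe sets count as bright from a mean log2 of 5, but the mean of all probe sets also took in dimmer ones. The only other set of AK4 and of ANKRD37 was dimmer. Of the 3 other sets of PFKFB3, and of PFKFB4, only 1 was bright.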

Additional observations from a re-analysis of the deposited data

How the results depend on the processing

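No call of a member turned its direction under any alternative run. With only the groups compared in the fit, members called numbered 1 for untreated 48 h against 0 h and 0 for Pu27 at 72 h. With the replicate block they numbered 2 for Pu27, 1 for Pu9- and 1 for Pu5- at 72 h and 2 for the Pu27 mean. The block changed no other count by over 1.5 times where the numbers were taken to pair the arrays. Where they only share a number, the block gave 1 call, AK4, for the mean of Pu27 against Pu9-, the mean of Pu27 against Pu5- and Pu27 against Pu5- at 72 h. Pu9- at 72 h had 1 call after the median shift and 1 with the filter at a mean log2 of 5, and the Pu27 mean had 1 with that filter. Pu27 at 72 h had 0 with the mean of all probe sets and 0 with the integrity covariate. With replicates left out, the counts ranged from 16 to 20 for untreated 24 h against 0 h, 4 to 16 for 48 h and 14 to 24 for 72 h. They ranged from 10 to 17 for 48 h against 24 h, 9 to 14 for 72 h against 48 h and 20 to 23 for 72 h against 24 h. From 24 to 72 h they ranged from 16 to 21 with Pu27, 17 to 23 with Pu9- and 17 to 23 with Pu5-. They ranged from 0 to 1 for each of Pu27, Pu9- and Pu5- at 72 h, for the Pu27 mean and for the test of the Pu9- effect between times. Signals of EGLN3, PFKM and P4HA2 are near the dim end of the arrays, which limits what can be seen of them.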
